A study of Mus musculus with 5 samples.

Results

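The T-cell receptor complex transcripts are the 7 genes Cd3d, Cd3e, Cd3g, Cd247, Trac, Trbc1 and Trbc2, chosen by name from the 55385 genes that each count table lists. All 7 were found in the tables, and 6 of them had enough counts to be tested. Surface-seq had been run on EL4 cells, an established mouse T lymphoma line that grows in suspension, and no treatment or genotype separates the libraries. Membrane-coated nanoparticles (MCNPs), polymer cores wrapped in plasma membrane extracted from the cells with the outer face kept outward, were the input of every library. In the 3 libraries of variation A (A1, A2 and A3) the RNA was extracted from the MCNPs, end-repaired and ligated to both adaptors, so that either side of the membrane could contribute. In the 2 libraries of variation B (B1 and B2) the 3′ adaptor was ligated on the intact MCNPs before the RNA was purified, which favours RNA on the outward face, and position on the membrane cannot be told apart from the library protocol in this design. No source says that the libraries of a variation came from separate cultures, so p-values measure the spread between these libraries, which may be technical.

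The αβ T-cell receptor binds peptide on MHC molecules through its α and β chains, whose constant parts are encoded by Trac and by either Trbc1 or Trbc2, depending on which joining segment the β locus rearranged to. The chains have almost no cytoplasmic tail. They signal through the CD3γ, CD3δ and CD3ε chains (Cd3g, Cd3d and Cd3e) and the ζ chain (Cd247), which carry immunoreceptor tyrosine-based activation motifs (ITAMs) that Lck phosphorylates and Zap70 then binds. A receptor that lacks any of these chains is retained inside the cell or degraded, so the proteins are assembled together. Their transcripts come from 4 places in the genome.

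In GRCm38 the CD3 genes lay together on chromosome 9. Cd3g (ENSMUSG00000002033.14) ran from 44969572 to 44980431 on the minus strand, and Cd3d (ENSMUSG00000032094.8) from 44981786 to 44987339 on the plus strand, so that the pair starts 1355 bases apart and is read in opposite directions. Cd3e (ENSMUSG00000032093.7) followed from 44998740 to 45009627 on the minus strand, and the 3 genes spanned 40056 bases. Cd247 (ENSMUSG00000005763.15) lay on chromosome 1 from 165788681 to 165877277, plus strand. Trac (ENSMUSG00000076928.5) lay on chromosome 14 from 54220521 to 54224206, plus strand. Trbc1 (ENSMUSG00000076490.6) and Trbc2 (ENSMUSG00000076498.2) lay on chromosome 6 from 41538218 to 41539881 and from 41546730 to 41548352, both on the plus strand and 6848 bases apart. The counts were made over the exons of each gene, without regard to strand.

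The 4 signalling chains share the ITAM, which the choice of genes did not use, and its coding bases are shown because this is the part that ties the CD3 chains and ζ to one function. The main annotated transcript of Cd3g, Cd3d and Cd3e held 1 motif each and that of Cd247 held 3. In each sequence below, read 5′ to 3′ from the GENCODE M21 transcripts, the capitals mark the codons of the paired tyrosines; every one of the 6 sequences is split by an intron in the genome.
Cd3g, chr9:44970735-44971268, minus strand: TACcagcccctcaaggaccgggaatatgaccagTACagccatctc
Cd3d, chr9:44986095-44986311, plus strand: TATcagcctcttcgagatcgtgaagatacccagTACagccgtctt
Cd3e, chr9:44999549-45000440, minus strand: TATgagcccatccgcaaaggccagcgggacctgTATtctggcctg
Cd247 motif 1, chr1:165856451-165857454, plus strand: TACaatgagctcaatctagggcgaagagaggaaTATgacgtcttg
Cd247 motif 2, chr1:165858473-165859260, plus strand: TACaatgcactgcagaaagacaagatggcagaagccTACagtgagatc
Cd247 motif 3, chr1:165859819-165861042, plus strand: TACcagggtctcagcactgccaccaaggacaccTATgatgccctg
The Cd3g and Cd3d motifs were identical at 32 of 45 bases, and the Cd3g and Cd3e motifs at 21 of 45.

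The β constant genes are near-identical copies, and this limits what their counts can show, since reads with several alignments were left out. Their coding parts of 518 bases were identical at 495 positions (95.6%), with a longest identical run of 259 bases. The first coding exon differed at 1 of 375 bases and the third, which encodes the membrane-spanning part, at 15 of 107. The third exon is shown for both genes with the differing bases in capitals, because it holds 15 of the 23 coding differences (GRCm38, plus strand).
Trbc1, chr6:41539229-41539335: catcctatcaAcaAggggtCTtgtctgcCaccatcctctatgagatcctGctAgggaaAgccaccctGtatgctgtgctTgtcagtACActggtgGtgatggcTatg
Trbc2, chr6:41547772-41547878: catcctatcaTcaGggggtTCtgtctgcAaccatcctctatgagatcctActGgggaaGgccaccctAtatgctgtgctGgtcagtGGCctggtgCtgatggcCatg
Of the 663 distinct 30-base stretches in the annotated Trbc2 transcript, 323 (48.7%) also occurred in Trbc1. The share for Trac was 0%, so the α and β constant genes were not equally countable.

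The annotation limits 1 other member. Of the 5329 exon bases of Cd247, 3213 (60.3%) are also exon of another gene, mostly of Pou2f1 on the opposite strand (3007 bases). A read that touched 2 genes was not counted, so that its counts rest on the other 2116 bases. Cd3e shared 135 of 4080 exon bases with Gm48719 on the opposite strand, and the remaining members shared none.

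The libraries of variation A held 1187117 to 4502174 counts and those of variation B 21862003 to 22980172, so that 3 counts, the upper limit that a count of 0 allows, stand for a CPM (counts per 1000000 counts of the library) of 0.666 to 2.53 for variation A and 0.131 to 0.137 for variation B. These limits and the confidence intervals below cover counting error only, since a library without molecular identifiers can count copies of 1 molecule. Protein-coding genes took 39.4% of the counts of A1, 22.6% for A2 and 22.0% for A3, while B1 stood at 63.6% and B2 at 64.6%, and A1 stood apart from the other variation A libraries. All 8 T-cell markers were detected in every library, whereas Ms4a1, Igkc and Blnk of the B-cell list, all NK-cell markers but Fcer1g, and Mpo and Elane of the myeloid list had at most 2 counts in any library. Above that limit were Ighm (96, 126 and 34 counts in variation A and 5024 and 5642 in variation B; called higher, log2 fold change 1.39), Fcer1g (35, 40, 11, 66 and 57; called lower, −3.46) and Lyz2 (0, 0, 0, 73 and 133). Lower counts above the limit came from Pax5 (up to 14) and Cd79a (10 in B1), from Itgam (up to 20), Cd68 (up to 16) and Csf1r (up to 7) of the myeloid list, and from Hba-a1 (6 in B1) and Alas2 (up to 46) of the erythroid list. The summed TMM CPM of the 7 B-cell markers was 48.4 to 50.8 for variation A and 122 to 133 for variation B, that of the 6 NK markers 16.2 to 17.3 and 1.37 to 1.65, that of the 8 myeloid markers 1.48 to 5.43 and 2.80 to 3.14, and that of the 6 erythroid markers 0 to 1.16 and 0.243 to 1.08. The sum of the 8 T-cell markers was 795 to 865 for variation A and 998 to 1041 for variation B. In every library the B-cell sum was almost all Ighm and the NK sum almost all Fcer1g. These sums therefore follow those genes and not their lists as a whole. The share of protein-coding counts and the T-cell, B-cell and NK sums differed between the variations without overlap. Their part in the results was not tested, and the myeloid and erythroid sums overlapped. These libraries hold RNA of MCNPs pooled from many cells. Fewer cells with a transcript, less RNA per cell and the library protocol cannot be told apart in them.

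The complex as a whole drew 535 counts from A1, 550 from A2 and 149 from A3, whereas B1 gave 16860 and B2 gave 16920. As a share of the library this was 0.0233% for A1, 0.0122% for A2 and 0.0126% for A3, and 0.0771% for B1 and 0.0736% for B2. To compare libraries of such different composition, CPM was scaled by TMM, which sets library sizes so that most genes do not change, and on that scale the 7 genes summed to 264, 213 and 220 TMM CPM in variation A and to 410 and 399 in variation B. The variation B libraries were the higher ones on either scale.

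Variation B was compared with variation A to ask which of these transcripts were favoured when the adaptor was ligated on the outward face. Cd3g and Cd3e were called higher in variation B and Trbc2 was called lower, though it turned positive on library totals, while Trac, Cd3d and Cd247 did not pass. A gene was called with edgeR's quasi-likelihood test at a Benjamini-Hochberg adjusted p under 0.05 over all genes tested and a fold change above 2. Over the 10287 genes tested, 11.0% were called higher and 12.4% lower, beside which 2 of the 6 members tested were called higher and 1 lower. Of all calls 47.1% were higher, and on library totals 94.9%, where 4 members were called higher and 0 lower. The median log2 fold change of the 6 was 0.67, and that of all genes tested was 0.05. The count of members called higher was 3 without A1, 1 without A2 or A3 and 0 without B1 or B2, and the count called lower was 0 without any 1 library.

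**Figure D1:**
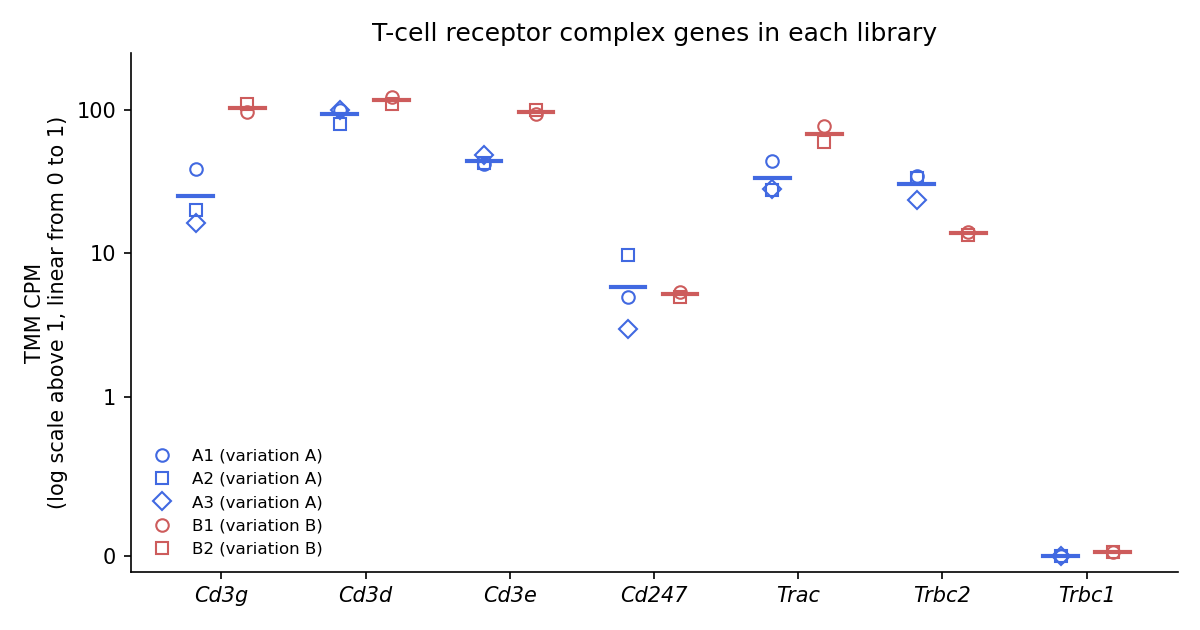
TMM CPM of each complex gene in each of the 5 libraries (vertical axis logarithmic above 1 and linear below), with a bar at the mean of each variation. Both variation B libraries sit above every variation A library for Cd3g, Cd3d, Cd3e and Trac, below them for Trbc2 and among them for Cd247, and Trbc1 lies at or near 0 throughout.

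Cd3g, the γ chain of CD3, had 78, 52 and 11 counts in the variation A libraries, in order, and 3963 and 4662 in the variation B libraries. On the TMM scale these were 38.5, 20.2 and 16.2 CPM in variation A and 96.3 and 110 CPM in variation B. The variation B values lay above every variation A value, and A1 was the highest of the latter. The means were 25.0 ± 11.9 (SD, n = 3) and 103 ± 9.60 TMM CPM (SD, n = 2). The log2 fold change was 2.00 ± 0.38 (SE; edgeR, adjusted p = 0.00982), and the difference exceeded the spread between libraries. It lost its call without B1 (2.10, edgeR adjusted p = 0.0601) and without B2 (1.91, 0.0999), where a single variation B library is assumed to vary like the others.

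Cd3e, the ε chain that pairs with both γ and δ, had 85, 110 and 33 counts in variation A and 3845 and 4254 in variation B. The TMM CPM was 42.0 (A1), 42.6 (A2) and 48.7 (A3) with extraction first, and 93.5 (B1) and 100.3 (B2) with ligation on the MCNPs. The variations did not overlap, and the libraries of each lay close together, at 44.4 ± 3.70 (SD, n = 3) and 96.9 ± 4.83 (SD, n = 2). The log2 fold change was 1.13 ± 0.27 (SE; edgeR, adjusted p = 0.0200). The call was lost without A2, A3, B1 or B2, with log2 fold changes of 1.17, 1.26, 1.17 and 1.07.

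Cd3d, the δ chain, which shares the chromosome 9 cluster with Cd3g, had 202, 205 and 68 counts in variation A and 5089 and 4696 in variation B. Its TMM CPM was 99.8, 79.4 and 100.3 for A1 to A3, and 124 and 111 for B1 and B2. The variations did not overlap but lay close, with means of 93.2 ± 11.9 (SD, n = 3) and 117 ± 9.18 (SD, n = 2). The log2 fold change of 0.34 ± 0.28 (SE; edgeR, adjusted p = 0.392) did not pass the test. Without A1 it was 0.54 (edgeR, adjusted p = 0.0301), under a fold of 2.

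Cd247, the ζ chain, was the least counted of the tested members. It had 10, 25 and 2 counts in variation A and 220 and 212 in variation B. The TMM CPM was 4.94, 9.69 and 2.95 for A1 to A3, and 5.35 and 5.00 for B1 and B2. The variation B libraries lay inside the range of variation A, and the log2 fold change was −0.31 ± 0.52 (SE; edgeR, adjusted p = 0.675). Without A2, the highest variation A library, it was 0.34. The estimate is imprecise, and A3 held 2 counts, a CPM of 1.68 (95% Wilson confidence interval 0.462 to 6.14).

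Trac, the α constant gene, had 90, 72 and 19 counts in variation A and 3159 and 2526 in variation B. A1 stood at 44.5 TMM CPM, A2 at 27.9 and A3 at 28.0, while B1 stood at 76.8 and B2 at 59.6. The variation B values exceeded every variation A value, of which that of A1 was the highest. The log2 fold change of 1.01 ± 0.32 (SE) missed the threshold (edgeR, adjusted p = 0.0516). Without A1 it was 1.40 and passed (edgeR, adjusted p = 0.000324), and it also passed with DESeq2 (1.00, adjusted p = 0.0386). It did not pass without A2 (0.93, edgeR adjusted p = 0.183) or without A3 (0.98, edgeR adjusted p = 0.152). Nor did Trac pass at equal depth (0.91) or with the replicate block (0.94). Its log2 fold change was 0.81 without B1 and 1.18 without B2.

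Trbc2, the β constant gene that was counted, had 70, 86 and 16 counts in variation A and 583 and 569 in variation B. A1 and A2 stood at 34.6 and 33.3 TMM CPM and A3 at 23.6, while B1 and B2 stood at 14.2 and 13.4, below all of variation A. The means were 30.5 ± 6.01 (SD, n = 3) and 13.8 ± 0.535 (SD, n = 2). The log2 fold change was −1.17 ± 0.32 (SE; edgeR, adjusted p = 0.0312). This call was the least stable of the 3. It was lost without any 1 of the 5 libraries (log2 fold changes from −1.24 to −0.999), and on the unscaled library totals the sign turned, to 0.28. Library totals moved the median of all genes tested to 1.50, and relative to that median Trbc2 fell by 1.22 on the log2 scale while Cd3g stood 1.88 above it.

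Trbc1, the other β constant gene, had 0 counts in every variation A library and 1 count in each of B1 and B2. The count of 0 allows a CPM of up to 1.30 for A1, 0.666 for A2 and 2.53 for A3, and the single counts stood for a CPM of 0.0457 in B1 (95% Wilson interval 0.00807 to 0.259) and 0.0435 in B2 (0.00768 to 0.247). It was not tested. Trbc2 therefore took 70 of 70, 86 of 86 and 16 of 16 of the β constant counts in variation A, and 583 of 584 and 569 of 570 in variation B. These shares were 100% (lower 95% Wilson bounds 94.8% in A1, 95.7% in A2 and 80.6% in A3), 99.8% (99.0 to 99.97) in B1 and 99.8% (99.0 to 99.97) in B2. A read that aligned equally well to both genes was left out, so the shares refer to reads that tell the genes apart.

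**Figure D2:**
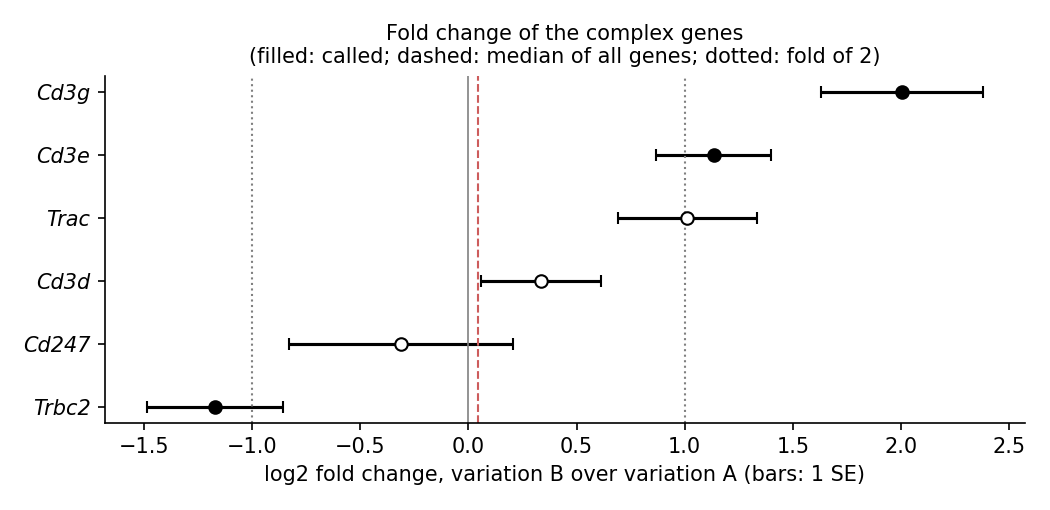
Log2 fold change of variation B over variation A for the 6 tested genes, with bars of 1 SE, filled where the gene was called. Cd3g (2.00) and Cd3e (1.13) lie above a fold of 2 and Trbc2 (−1.17; 0.28 on library totals) below it in the other direction, with Trac (1.01) at the threshold.

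On TMM CPM, 4 of the 6 tested members (Cd3g, Cd3d, Cd3e and Trac) had both variation B values above every variation A value, and 1 (Trbc2) had both below. Over all genes tested these arrangements held for 31.2% and 26.7%.

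The direction of each member was followed through the other settings. Cd3g, Cd3e, Trac and Cd3d had a positive log2 fold change under every one of the 18 alternatives that gave each a value. Cd3g ranged from 1.88 to 3.38 and kept its call in 15 of them. With a test against a fold change of 2 in place of a threshold on the estimate, none of the 6 members was called, and the nearest was Cd3g (edgeR glmTreat, adjusted p = 0.0542, against unadjusted p = 0.00387); at an unadjusted p under 0.05 Cd3g was the only one.

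**Figure D3:**
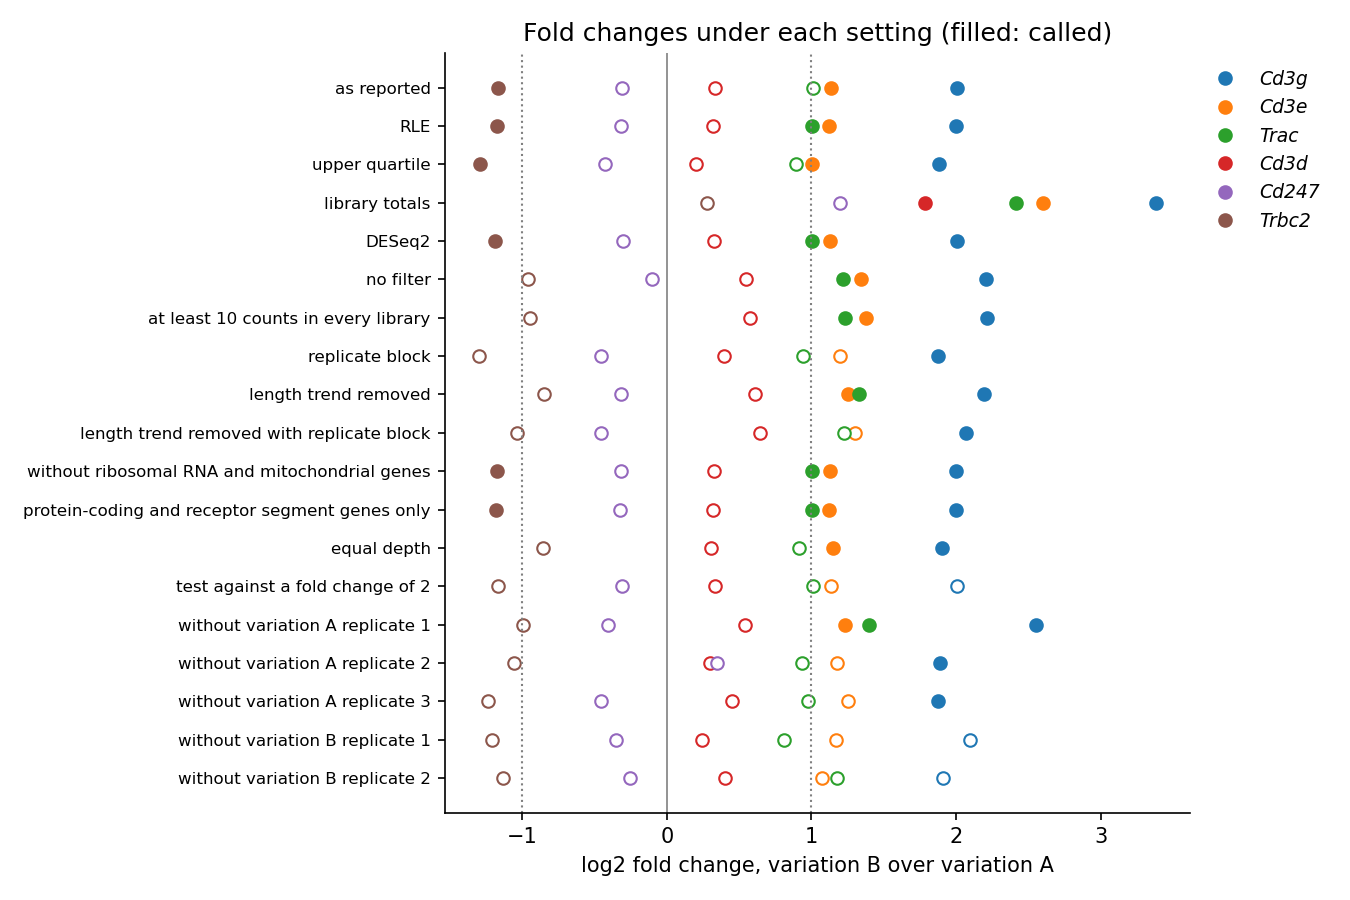
Log2 fold change of the 6 tested genes (horizontal axis) under the reported setting and the 18 alternatives (rows), filled where the gene was called. Cd3g, the rightmost gene in each row, stays between 1.88 and 3.38, and Trbc2, usually the leftmost, lies below 0 except on library totals (0.28).

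The log2 fold changes of the members ran from −1.17 to 2.00, and the make-up of the complex counts was compared next. Ratios within a library do not depend on the scaling between libraries. The ratios and the shares of single genes were chosen after their values were seen and are given as a description, without their p-values. Trac and Trbc2 gave similar counts in variation A, with 1.29, 0.837 and 1.19 counts on Trac for each on Trbc2, and 5.42 and 4.44 in variation B. The libraries of the variations did not overlap, and the mean ratio was 4.47 times as high in variation B. Cd3g to Cd3d counts were 0.386, 0.254 and 0.162 in variation A and 0.779 and 0.993 in variation B, 3.32 times as high on average. Cd3g to Cd3e counts were 0.918, 0.473 and 0.333 against 1.03 and 1.10. Here A1 lay near the variation B libraries and away from A2 and A3.

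As shares of the counts on all 7 genes, Cd3d was the largest in A1, A2, A3 and B1. In B2 Cd3d stood at 27.8% (95% Wilson interval 27.1 to 28.4) and Cd3g at 27.6% (26.9 to 28.2), and these intervals overlapped. Cd3d took 40.2% ± 4.70 (SD, n = 3) when RNA was extracted first and 29.0% ± 1.72 (SD, n = 2) in variation B. Cd3g took 10.5% ± 3.70 and 25.5% ± 2.86, and Trbc2 took 13.2% ± 2.45 and 3.41% ± 0.0672. For each of these 3 genes the libraries of the variations did not overlap. Cd3e did not overlap either, although A3 and B1 lay close, and Trac overlapped. Cd3e took 15.9%, 20.0% and 22.1% in variation A and 22.8% and 25.1% in variation B, and Trac took 14.2% ± 2.26 and 16.8% ± 2.69. The α and β constant genes together held 29.9%, 28.7% and 23.5% of the complex counts for A1 to A3 and 22.2% and 18.3% for B1 and B2, a difference of −7.13 percentage points that did not pass (exact permutation test over the 5 libraries, two-sided, p = 0.2, or 0.229 adjusted over 16 shares and ratios; 3 against 2 cannot go below 0.1). A3 and B1 were close to each other on this share, with 95% Wilson intervals of 17.4 to 30.9 and 21.6 to 22.8.

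**Figure D4:**
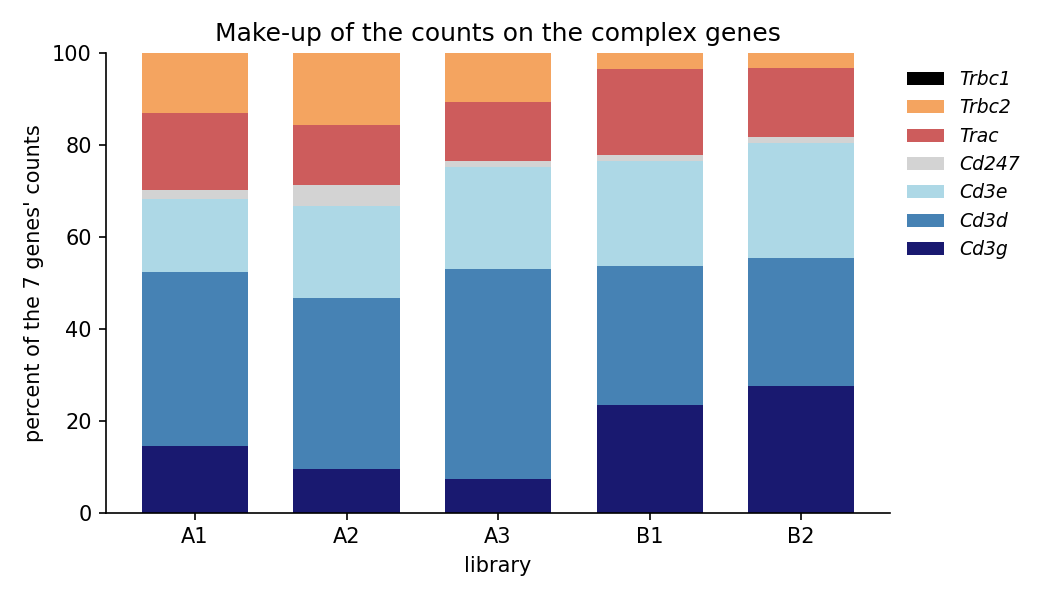
Share of the counts on the 7 complex genes that each gene took, as stacked bars for the 5 libraries. Cd3g widens from 7.38% to 14.6% in variation A to 23.5% and 27.6% in variation B, Trbc2 narrows from at least 10.7% to at most 3.46%, and Trbc1 is too small to be seen.

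Levels of different genes were compared per length, as TPM (transcripts per 1000000, computed from the exon lengths in the tables). In variation A the order was Cd3d, at 13.0 TPM on average, then Trbc2 (11.4) and Trac (9.71), whose ranges over the libraries overlapped from one to the next, then Cd3e (2.66) and Cd3g (2.19), which overlapped each other but not Trac, then Cd247 (0.263) and Trbc1 (0). In variation B the order was Trac (92.6), Cd3d (82.5), Cd3g (40.7), Cd3e (30.5), Trbc2 (25.5), Cd247 (1.24) and Trbc1 (0.0409), and no neighbours overlapped in TPM. Trac and Cd3d did overlap when length-scaled on TMM library sizes (63.7 to 82.1 and 61.0 to 68.2), so their order is not settled. Trbc2 thus stood at position 2 in variation A and at position 5 in variation B. Its length was not reduced for the 48.7% of its 30-base stretches that also occur in Trbc1. Reads from these may have been left out, so its level and position may be understated in both variations. The order was the same when the exon bases shared with other genes were left out of the lengths, which raised Cd247 on the TMM scale from 1.10 to 2.77 CPM per kilobase for variation A and from 0.971 to 2.44 for variation B, still below all members but Trbc1.

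Against the protein-coding genes of the same library, Cd3d stood between rank 148 and rank 233 by TPM in variation A and at ranks 108 and 134 in variation B. Trac stood at 171, 412 and 394 and then at 77 and 128. Cd3g stood at rank 1224 (A1), 2757 (A2) and 3179 (A3) and at 329 (B1) and 285 (B2), among 10222 to 13566 protein-coding genes with a count. Trbc2 stood at 165, 204 and 330 in variation A and lower, at 580 and 650, in variation B.

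The genes around the receptor were then counted in lists of its known partners, which were not picked for how they moved in this comparison but were drawn up with earlier results of these data known. Of the 27 proximal signalling genes, 25 were tested, 3 were called higher and 3 lower, with a median log2 fold change of 0.17 (0.05 over all genes; 0.54 without A1 and 0.04 without B1). These counts are close to the 11.0% higher and 12.4% lower over all genes tested, so the genes below are described singly. Sos1, a Ras exchange factor (3.37 ± 0.48, SE; edgeR, adjusted p = 0.00372), Stim1, the calcium sensor of the endoplasmic reticulum (3.21 ± 0.32; adjusted p = 0.000904), and Fyn, a Src-family kinase related to Lck (1.94 ± 0.36; adjusted p = 0.00983), were higher. Stim1 had 215, 242 and 73 counts in variation A and 35087 and 44462 in variation B. Lower were Nck2, an adaptor that binds CD3ε (−2.21), Plcg1, the phospholipase activated after Lat phosphorylation (−1.94), and Rhoh (−1.36), with edgeR adjusted p-values from 0.00723 to 0.0394. The most abundant per length were Stim1 (48.9 TPM averaged over the 5 libraries, an average in which the order within a variation can differ, since Stim1 had 93.8 to 108 TMM CPM in variation A and 853 to 1048 in variation B), Lat (37.9), Rasgrp1 (21.4) and Zap70 (17.0), of which the last 3 did not pass, with log2 fold changes of −0.03, 0.33 and −0.97. The counts called higher and lower were 7 and 5 without A1, 3 and 2 without A2, 3 and 1 without A3, 2 and 1 without B1 and 2 and 0 without B2, and on library totals they were 16 and 0, with Rhoh at 0.20. The kinase Lck, which phosphorylates the ITAMs, had a log2 fold change of 0.19 ± 0.27 (SE; edgeR, adjusted p = 0.628) and is named in addition to the rule.

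Of 17 negative regulators 16 were tested, of which 0 were called higher and 5 lower (11.0% and 12.4% over all genes tested), with a median of −0.29; DESeq2 also called 0 higher and 5 lower, and at an unadjusted p under 0.05 edgeR gave 0 higher and 7 lower. On library totals, where the median of all genes tested is 1.50, the list's median was 1.21 and 7 were called higher and 0 lower. Dgkz was then at 0.36. The count of 5 lower was 1 with no filter, 2 with at least 10 counts in every library, 2 at equal depth, 1 with the replicate block (with or without the length trend removed) and 0 in the test against a fold change of 2. It was 4 without A1 (with 1 higher), 1 without A2 and 0 without A3, B1 or B2. The 5 were Ubash3b (−2.93), Dok2 (−2.26), Ubash3a (−2.16), Dok1 (−1.62) and Dgkz (−1.17), with edgeR adjusted p-values from 0.0154 to 0.0494. Ubash3a and Ubash3b are phosphatase-like suppressors of receptor signalling, Dok1 and Dok2 are adaptors, and Dgkz removes diacylglycerol. Ubash3b had at most 22 counts in a library, and Dok2 had 7, 36, 9, 122 and 50 in A1 to B2. Ubash3b and Dok2 passed the filter through variation A, where they are high, so their calls support nothing further. With at least 10 counts in every library neither Ubash3b nor Dok2 could be tested. The highest by TPM averaged over the 5 libraries, Ptpn6, Csk, Sla and Laptm5, did not pass, with log2 fold changes of 0.41, −0.31, 0.24 and −0.82, and the order can differ within a variation.

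Of 10 coreceptor and costimulatory genes 5 were tested and 0 were called by edgeR or by DESeq2 (11.0% higher and 12.4% lower over all genes tested by edgeR), with a median of 0.45 (on library totals 3 higher and 0 lower, median 1.97; with 6 tested, the median lay between −0.19 and −0.03 without any 1 library), while at an unadjusted p under 0.05 edgeR gave 1 higher and 2 lower. With no filter it called 1 higher and 1 lower of 8 tested, with at least 10 counts in every library 1 higher of 3, and without A1 1 higher and 1 lower of 6, and without B1 it called 1 lower. Cd28 had a log2 fold change of 0.94 (edgeR, adjusted p = 0.0429), under a fold of 2, and Ptprc, Pdcd1 and Cd2 had 0.82, −0.76 and −1.27. The coreceptors themselves had few counts. Cd4 had 5, 9, 7, 7 and 0 counts in A1 to B2, Cd8a had 0, 0, 0, 9 and 4, and Cd8b1 had 0 in every library. On the TMM scale Cd4 stood at 2.47, 3.49 and 10.3 CPM in variation A and at 0.170 and 0 in variation B, but it did not pass the filter.

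**Figure D5:**
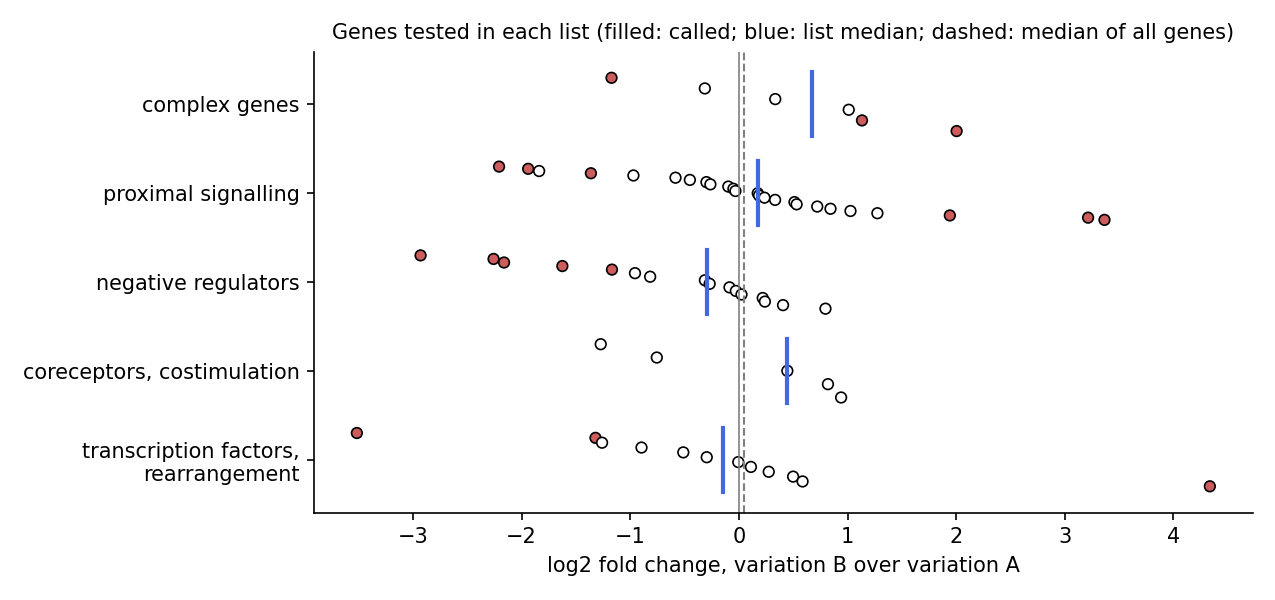
Log2 fold change of each tested gene in the complex and in 4 lists of its partners and regulators, filled where called, with the list median in blue and the median of all genes (0.05) dashed. The called genes of the negative regulators all lie below 0 as reported (Dgkz 0.36 on library totals), and proximal signalling has 3 above and 3 below.

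Of the 14 transcription factors and rearrangement genes, 12 were tested, 1 was called higher and 2 lower (11.0% and 12.4% over all genes tested), with a median of −0.15, and on library totals 8 were higher and 1 lower, with a median of 1.33. Dntt, the terminal transferase that adds bases at V(D)J joins, had 6, 5 and 2 counts in variation A and 2227 and 1993 in variation B. It was called higher, with a log2 fold change of 4.33 ± 0.38 (SE, edgeR adjusted p = 0.000577). Dntt passed the filter through variation B, where it is high, so its call supports nothing further. With at least 10 counts in every library it could not be tested, and of 9 list genes 0 were called higher and 1 lower. Lef1 (−3.52) and Tcf3 (−1.32) were lower, and Tcf3 was at 0.23 on library totals. Lef1 had 3 to 15 counts per library, with 3.10 to 4.45 TMM CPM in variation A and 0.316 and 0.354 in variation B. It entered the test only through its higher level in variation A, so nothing further rests on the Lef1 call. The count called lower was 3 without A1 and 0 without A2 or A3. Tcf7, Ikzf1 and Bcl11b, abundant factors of T-cell development, did not pass, with log2 fold changes of −0.51, −0.01 and −0.30. The recombinase genes Rag1 and Rag2 had 0 counts in every library.

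The other receptor loci were checked for constant genes. Trdc, the δ constant gene, had 1 count in B2 and none elsewhere, and Ptcra, the pre-receptor α chain of thymocytes, had 1 count in A1 and none elsewhere. The γ constant genes, which the annotation names Tcrg-C1 to Tcrg-C4, were counted. Tcrg-C2 had 52, 21 and 9 counts in variation A and 345 and 430 in variation B (log2 fold change −0.77, edgeR adjusted p = 0.258), and Tcrg-C4 had 31, 11, 6, 387 and 350 (−0.09, edgeR adjusted p = 0.907). Tcrg-C1, with 5, 3, 1, 39 and 8 counts, and Tcrg-C3, with 0 throughout, were not tested. The γ constant genes resemble each other, so reads can be lost or split between them as for the β copies.

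Variable, diversity and joining segments are the parts that rearrangement joins to the constant genes. Of 260 annotated segments, 48 had a count in any library and 8 were tested, and 3 were called higher and 1 lower (11.0% and 12.4% over all genes tested). Without A2 or A3 these counts were 1 and 0, and without B1 or B2 they were 0 and 0, with 3 higher at an unadjusted p under 0.05 by edgeR in each. The 3 higher segments had at most 6 counts in a variation A library and passed the filter through variation B, so their calls support nothing further, and with at least 10 counts in every library 0 segments could be tested. On the α locus the joining segments Traj45 (4, 4, 0, 299 and 262 counts; log2 fold change 2.20, edgeR adjusted p = 0.0404) and Traj42 (0, 0, 0, 68 and 173; edgeR adjusted p = 0.0376) were higher, and the variable segment Trav13n-4 had 19, 9, 1, 222 and 262 counts (0.13, edgeR adjusted p = 0.887). On the β locus Trbv15 had 58, 20, 3, 205 and 261 counts and Trbj2-3, a joining segment of the cluster that precedes Trbc2, had 11, 1, 2, 31 and 83, and neither was called. On the γ locus Trgj4 had 6, 2, 0, 547 and 698 counts and was higher (3.31, edgeR adjusted p = 0.0110), while Trgv2 had 15, 15, 4, 70 and 34 and was lower (−2.35, edgeR adjusted p = 0.0275). Trgv2 passed the filter through variation A, where it is high, so its call supports nothing further either. A read that spans a segment and a constant gene touches 2 genes and was left out, and the segments of a family resemble each other, so these counts are not the usage of the segments.

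The protein-coding genes whose levels over the 5 libraries were most like the mean of the tested members were Mapk14, Ccng1, Ppm1g, Rad23b and Bptf. Likeness was the root mean square difference between centred log2 TMM CPM profiles, with a prior count of 2, among 4459 genes with at least 10 counts in every library. It was 0.050 for Mapk14 and 0.070 for Bptf, against a median of 0.590 over those genes. The members themselves were farther from their own mean, from 0.252 for Cd3d to 0.837 for Trbc2. With at least 50 counts in every library, 2 of the 5 (Ccng1 and Bptf) remained among the nearest.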

How the data were processed

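Surface-seq of EL4 cells was analysed in 3 libraries of variation A and 2 of variation B, grouped by title. Per the submitters' processing notes and the study's methods, the authors used Trimmomatic 0.36 for trimming, STAR 2.7.3a for alignment to GRCm38 and featureCounts 1.6.4 for counting on GENCODE M24 exons, so that the deposited values are whole counts per gene without normalization. Strand was not used, and reads with several alignments or over several genes were left out; read length is not given in the sources used here. Symbols came from GENCODE M21 for 55144 of 55385 identifiers. The test was edgeR's quasi-likelihood test (version 4.0.16, R 4.3.3) after filterByExpr and TMM, with Benjamini-Hochberg adjustment and with DESeq2 1.42.0 as an alternative. It was tried on simulated data, whose outcome is not given here and on which no result above rests. The share of the constant genes was compared with scipy 1.17.1. From each list, the text names up to 6 called genes and up to 4 with the highest mean TPM. Members, lists and tests were chosen with earlier results of these data known; exon lengths without shared bases, the older γ symbols, ratios and single shares of members and segments by name were chosen after seeing the data. Protein sequences were not used here, and 2 list genes are not reported here.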

Additional observations from a re-analysis of the deposited data

How the results depend on the processing

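Under the alternatives Cd3g, Cd3e, Trac and Cd3d kept their direction, and calls changed as follows; the cause was not tested. On library totals, where the median of all genes moved to 1.50, Trbc2 (0.28) and Cd247 (1.20) turned positive, as did Dgkz (0.36), Rhoh (0.20) and Tcf3 (0.23), Cd3d (1.78) and Trac (2.42) were called, 4 members were higher and 0 lower, and 5654 genes were higher and 302 lower. Trac was also called with RLE factors (1.00), DESeq2 (1.00), no filter (1.22), at least 10 counts in every library (1.23), the length trend removed (1.33), ribosomal and mitochondrial genes left out (1.01) and protein-coding and segment genes only (1.00). Trbc2 was not called with no filter (−0.96), at least 10 counts (−0.94), the length trend removed (−0.85) or equal depth (−0.86), which left 0 members lower. At least 10 counts gave 592 genes higher and 722 lower, and Cd247 could not be tested there or at equal depth. The test against a fold change of 2 called 0 members (Cd3g 2.00, Cd3e 1.13, Trbc2 −1.17) and 289 genes higher and 388 lower, against 1135 and 1276.

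The replicate numbers share only a name: deviations of same-numbered libraries correlated at −0.10 and −0.03. With the replicate block, Cd3e (1.19) and Trbc2 (−1.30) were not called, leaving 1 member higher (Cd3g) and 0 lower, and 761 genes were higher and 813 lower. With the replicate block and the length trend removed, Cd3e (1.30) and Trbc2 (−1.03) were not called, with 1 member higher and 0 lower and 676 genes higher and 760 lower.

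Leaving out each library in turn gave log2 fold changes of 1.88 to 2.55 for Cd3g, 1.07 to 1.26 for Cd3e, 0.81 to 1.40 for Trac, 0.24 to 0.54 for Cd3d, −0.45 to 0.34 for Cd247 and −1.24 to −0.999 for Trbc2, 0 to 3 members higher and 0 to 0 lower, and 161 to 2526 genes higher and 137 to 1821 lower. Trbc2's share of β constant counts differed by −0.16 percentage points per kilobase (−0.17 by counts). Of 51 list and segment genes tested and not called, 32 changed sign under some alternative; of the 21 called, 3 did, all on library totals. With at least 50 counts in every library 2 of the 5 most alike genes remained. Counts of 2 to 25 in variation A limit the precision for Cd247.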
